A study of Mus musculus with 8 samples.

Results

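The Ugt2b genes encode UDP-glucuronosyltransferases, and 7 of them were measured in the liver: Ugt2b1, Ugt2b5, Ugt2b34, Ugt2b35, Ugt2b36, Ugt2b37 and Ugt2b38. They were taken by gene symbol, and all 7 were among the 11784 genes of the table, which held 16 Ugt genes in all. Livers came from male C57BL/6J mice that were moved at 9 weeks of age to an amino acid-defined diet and were killed 4 months later after an overnight fast of about 16 hours. In the Control diet (TD.140711) 22% of calories came from amino acids, and in the Low AA diet (TD.140712) 7.1%, with carbohydrate making up the difference. There were 4 mice per diet, named F129, F2212, F7111 and F2110 on Control and H1126, H828, H817 and H1315 on Low AA, and 1 whole-liver poly(A) RNA library was made from each. The comparison asks which hepatic transcripts differ after long-term restriction of dietary amino acids. Values are scaled read counts, which are read counts that the authors multiplied by a factor for each library and rounded, so they are not raw counts and the exact depth is unknown. They summed to between 27876664 and 30799385 per mouse. Markers of hepatocytes were high in every mouse, with summed values for 7 markers of 2306552 to 2712198 on Control and 2461008 to 2721260 on Low AA. Alb, at 1321260 to 1789500, made up most of these sums.

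UDP-glucuronosyltransferases sit in the membrane of the endoplasmic reticulum and join glucuronic acid, taken from UDP-glucuronate, to small lipophilic molecules. The products are water soluble and leave the cell for bile or blood. Enzymes of the 2B subfamily act on steroid hormones, bile acids, fatty acids and many drugs, with substrate ranges that overlap, and the liver is a main site of their expression. In the mouse each Ugt2b gene has its own promoter and a full set of exons, in contrast to the Ugt1a genes, which join different first exons to a shared set of later ones.

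All 7 genes lie in 1 cluster on chromosome 5 of GRCm38, spanning 534 kb in the GENCODE annotation. Ugt2b34 is at chr5:86889767-86906937, Ugt2b1 at chr5:86916638-86926530, Ugt2b35 at chr5:87000860-87013275, Ugt2b36 at chr5:87065927-87092555, Ugt2b5 at chr5:87124960-87140318, Ugt2b37 at chr5:87240493-87254804 and Ugt2b38 at chr5:87409942-87424203. Ugt2b35 is on the plus strand and the others are on the minus strand. Each has 6 exons and a coding sequence of 1590 to 1599 bases. Ugt2a3, another Ugt gene that was measured, lies between Ugt2b37 and Ugt2b38.

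The sequences just before the transcription starts are shown because they carry a feature that all the members have. RefSeq promoters were found for 7 of 7 genes (GRCm38.p6). The last 100 bases before the start are printed 5′ to 3′ in the direction of transcription for 5 of them: Ugt2b38 at chr5:87424204-87424303, Ugt2b37 at chr5:87254789-87254888, Ugt2b5 at chr5:87140341-87140440, Ugt2b1 at chr5:86926504-86926603 and Ugt2b34 at chr5:86906938-86907037, all on the minus strand. Capitals mark GTTA, any 4 bases and TTAAC.
Ugt2b38: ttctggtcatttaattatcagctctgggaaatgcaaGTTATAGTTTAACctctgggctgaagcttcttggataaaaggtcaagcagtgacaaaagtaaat
Ugt2b37: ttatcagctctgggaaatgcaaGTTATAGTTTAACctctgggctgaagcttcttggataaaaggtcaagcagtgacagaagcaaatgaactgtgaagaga
Ugt2b5: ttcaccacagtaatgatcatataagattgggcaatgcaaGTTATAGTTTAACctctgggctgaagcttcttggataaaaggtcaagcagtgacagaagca
Ugt2b1: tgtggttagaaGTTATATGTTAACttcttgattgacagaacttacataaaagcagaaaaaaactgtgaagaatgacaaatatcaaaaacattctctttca
Ugt2b34: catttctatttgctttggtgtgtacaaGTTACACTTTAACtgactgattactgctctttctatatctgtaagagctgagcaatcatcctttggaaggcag

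These letters were chosen after the promoters had been read. In the 250 bases before the start, 7 of 7 Ugt2b promoters held the motif on the coding strand, beginning 61 to 89 bases before the start. Searched on both strands, 56 of 32851 RefSeq promoters of that length held it, which is 0.170%, and these 56 include the 7. The 7 promoters belong to genes of 1 family, so they are not independent. Of 4 other motifs searched on both strands, AGGTCA, a core element of nuclear receptor sites, was found in 5 of 7 promoters against 14.0% of all promoters, in Ugt2b5, Ugt2b35, Ugt2b36, Ugt2b37 and Ugt2b38. GTTAAT (in 6.43% of all promoters), TTCNNNGAA (7.02%) and TGACNNNGC (10.2%) were found in 0 of 7. A match is a description of the letters and not evidence of binding.

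Ugt2b37, Ugt2b38 and Ugt2b5 are the most alike of the family. The coding sequence of Ugt2b5 was identical to that of Ugt2b38 at 97.0% of aligned bases and to that of Ugt2b37 at 94.7%, and Ugt2b37 and Ugt2b38 were identical at 94.1%. By contrast, Ugt2b34 and Ugt2b1 were 70.9% to 74.6% identical to every other member. Over the 250 promoter bases, Ugt2b37 and Ugt2b38 were identical at 84.8%, Ugt2b5 and Ugt2b38 at 81.5%, and Ugt2b5 and Ugt2b37 at 72.6%. Reads were 100 bases long, so the likeness matters for counting. Of the 1792 windows of 100 bases in the Ugt2b38 transcript, 434 (24.2%) also occur in the Ugt2b5 transcript. Ugt2b37 shares 19 of its 1795 windows with both of the others, which is 1.06%. Ugt2b1, Ugt2b35 and Ugt2b36 share 0 windows with any other gene, and Ugt2b34 shares 12 of 2952 with Ugt2a3.

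**Figure D1:**
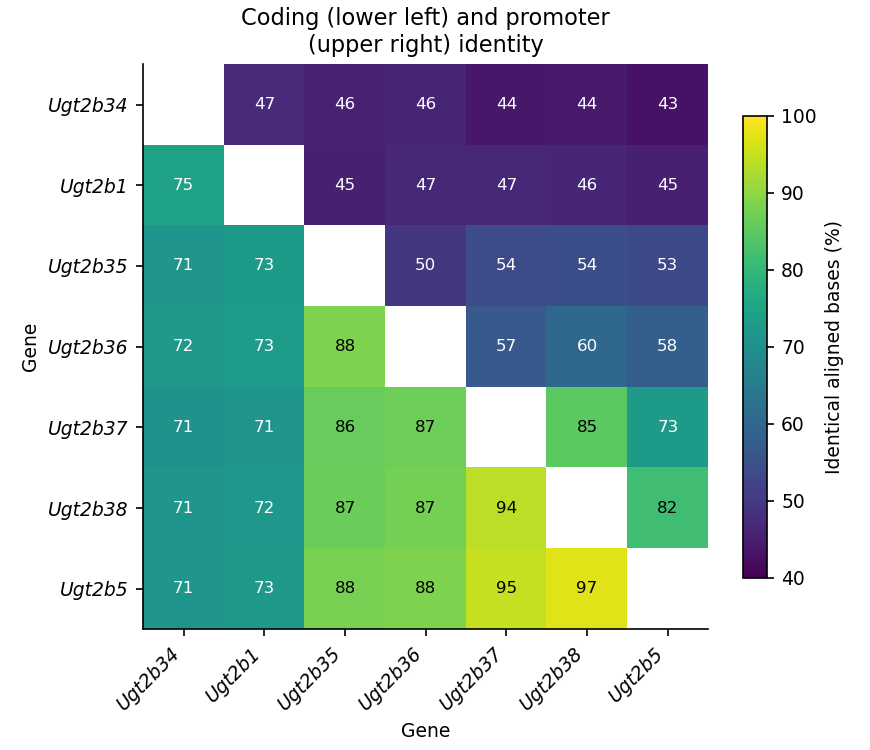
Percent of identical aligned bases for each pair of Ugt2b genes, with coding sequences in the lower left and the 250 bases before the transcription start in the upper right. The 3 genes at the right and bottom, Ugt2b37, Ugt2b38 and Ugt2b5, form the block of highest identity (coding 94.1% to 97.0%).

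A stretch of read length shows the overlap. The first 100 coding bases, in exon 1, are the same in Ugt2b5 (chr5:87140207-87140306) and Ugt2b38 (chr5:87424072-87424171), and Ugt2b37 (chr5:87254671-87254770) differs from them at 1 base, in a capital. All are on the minus strand of GRCm38.
Ugt2b5: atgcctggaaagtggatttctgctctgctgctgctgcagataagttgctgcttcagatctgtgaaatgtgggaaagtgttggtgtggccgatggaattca
Ugt2b38: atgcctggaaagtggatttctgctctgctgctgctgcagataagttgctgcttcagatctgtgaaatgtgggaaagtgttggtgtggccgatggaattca
Ugt2b37: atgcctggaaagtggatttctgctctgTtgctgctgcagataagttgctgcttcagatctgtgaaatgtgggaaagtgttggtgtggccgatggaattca

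A read from this stretch cannot be given to Ugt2b5 or Ugt2b38 by its letters. Along the whole coding sequence these genes differ at 47 bases, and their longest identical run is 443 bases.

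The mean of each of the 7 Ugt2b genes was lower in mice fed the Low AA diet, and none of the differences passed an adjusted p under 0.05 in limma, a linear model fitted to all 11784 genes on the scale of log2(value + 1). The largest differences were in the genes of lowest expression: mean Ugt2b38 was 12.7-fold lower and mean Ugt2b37 was 3.78-fold lower, as ratios of the means of 4 mice. Both ratios lean on Control mouse F129, and without it they were 6.24-fold and 2.33-fold. Among the abundant members, Ugt2b1 was lower by 46.3%, Ugt2b5 by 31.4% and Ugt2b36 by 25.9%, each with no overlap between the diets. Ugt2b35 was lower by 19.5% and Ugt2b34 by 7.94%, with values that overlapped. In these bulk libraries, fewer cells of a type and less RNA per cell cannot be told apart.

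All 7 log2 differences were below 0, as were 49.5% of those of all genes. The median log2 difference was -0.55 over the 7 genes and 0.00 over all genes. At an adjusted p under 0.05, 0 of 7 were lower, against 0.297% of all genes. At an unadjusted p under 0.05 in limma, 6 of 7 were lower, against 6.7% of all genes, the exception being Ugt2b34. That number was 5 of 7 with robust moderation or vooma weights, and 4 to 6 of 7 with each mouse left out. The share of all genes in those fits is not given here. In 3 of 7 every Low AA mouse was below every Control mouse, against 3.55% of all genes. The members are neighbours in the genome and partly share reads, so they are not independent of each other, and the group was chosen with earlier results of these data known. The study itself displayed Ugt2b1, Ugt2b37 and Ugt2b38 among genes picked from these mice, so their direction is not independent evidence. Its pathway heatmap is described as based on genes that differed between the diets at q < 0.05 (FDR). That threshold belongs to the study's own comparison, which differs from the limma fit used here.

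**Figure D2:**
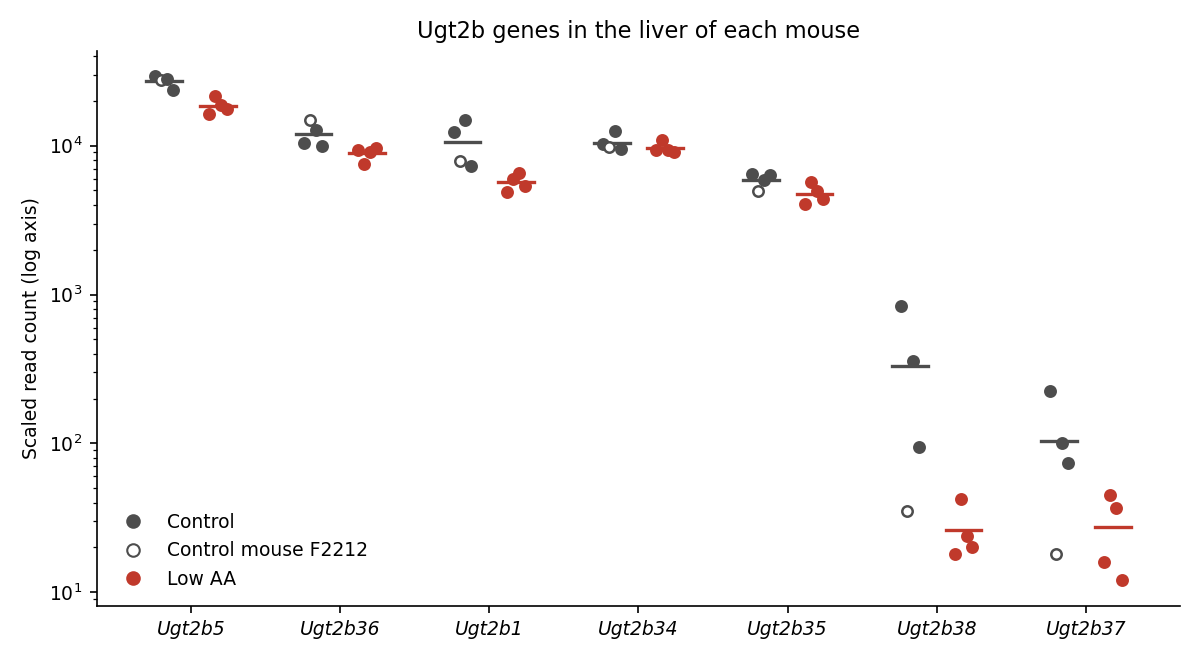
Scaled read count (log axis) of each Ugt2b gene in each of the 8 mice, with horizontal bars at the mean of 4 mice and genes ordered by Control level per kilobase. Ugt2b1, Ugt2b5 and Ugt2b36 do not overlap between diets, and in Ugt2b37 and Ugt2b38 the open point, Control mouse F2212, lies among the Low AA mice.

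Ugt2b5 was the most abundant member and had the smallest adjusted p of the family. Its scaled read counts were 29400, 27673, 27901 and 23522 in Control mice F129, F2212, F7111 and F2110, and 16395, 21640, 18630 and 17739 in Low AA mice H1126, H828, H817 and H1315. The groups were separate, with 27124 ± 2521 on Control and 18601 ± 2225 on Low AA (SD, n = 4 each). The log2 difference was -0.55 (standard error 0.12, limma adjusted p = 0.0869), and the exact permutation test gave p = 0.0286 (two-sided), the smallest that 4 mice against 4 allow.

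Ugt2b1 was read in F129, F2212, F7111 and F2110 at 12320, 7862, 14986 and 7335, and in H1126, H828, H817 and H1315 at 4886, 6007, 6558 and 5372. The Control mice varied 2.04-fold, with F129 and F7111 high and F2212 and F2110 low, whereas the Low AA mice varied 1.34-fold and all lay lower. Means were 10626 ± 3667 and 5706 ± 730 (SD, n = 4 each), a log2 difference of -0.84 (standard error 0.22, limma adjusted p = 0.146, exact permutation p = 0.0286, two-sided).

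For Ugt2b36 the Control values were 10397, 14875, 12793 and 9998 and the Low AA values 9338, 7507, 9117 and 9659, in the same order of mice. The diets did not overlap, but the lowest Control and highest Low AA mice, at 9998 and 9659, were close. In this gene F2212 was the highest of the 8 mice. The log2 difference was -0.42 (standard error 0.14, limma adjusted p = 0.27, exact permutation p = 0.0286, two-sided).

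Ugt2b35, the member on the opposite strand, had 6482, 4930, 5863 and 6386 in Control mice and 4066, 5661, 4932 and 4383 in Low AA mice. The groups overlapped, since Control mouse F2212 was below Low AA mice H828 and H817. Its log2 difference was -0.32 (standard error 0.13, limma adjusted p = 0.377, exact permutation p = 0.0857, two-sided). Ugt2b34 differed least, with 10201, 9771, 12484 and 9513 in Control mice and 9341, 10899, 9341 and 9055 in Low AA mice. H828 was higher than 3 of the 4 Control mice. The log2 difference was -0.11 with a 95% interval of -0.37 to 0.14 (limma adjusted p = 0.771).

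The 2 rare members, Ugt2b38 and Ugt2b37, had by far the widest spread among the Control mice. Ugt2b38 was at 832, 35, 357 and 95 in F129, F2212, F7111 and F2110, and at 18, 42, 24 and 20 in H1126, H828, H817 and H1315. F129, F7111 and F2110 were above every Low AA mouse, and F2212 was inside the Low AA range. Means were 330 ± 363 and 26.0 ± 11.0 (SD, n = 4 each). The log2 difference was -2.81 with a 95% interval of -4.59 to -1.02 (limma adjusted p = 0.185, exact permutation p = 0.0571, two-sided). Control values ran over 23.8-fold, and the spread of this gene among Control mice on the log2 scale was the largest but 16 of 11784 genes.

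Ugt2b37 went the same way at lower values, with 224, 18, 100 and 74 in Control mice and 16, 45, 37 and 12 in Low AA mice. F129 was highest and F2212 lowest of the Control mice in both genes. Means were 104 ± 87.0 and 27.5 ± 16.0 (SD, n = 4 each), a log2 difference of -1.60 (standard error 0.68, limma adjusted p = 0.392, exact permutation p = 0.114, two-sided). Divided by the fitted library factors, the Low AA values of these genes correspond to about 18.1 to 43.5 reads for Ugt2b38 and 10.8 to 46.6 for Ugt2b37, so counting error is large there.

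How far the rare members separated depended on Control mice F2212 and F129, in opposite directions. Without F129, the highest mouse, the log2 difference was -2.07 for Ugt2b38 (limma adjusted p = 0.266) and -1.07 for Ugt2b37 (limma adjusted p = 0.617), and both genes still overlapped between diets. Without F2212 and with F129 kept, Ugt2b38 stood at 428 ± 374 in the other 3 Control mice (SD, n = 3), 16.5-fold above the Low AA mean, with a log2 difference of -3.58 and a limma adjusted p of 0.0375. The adjusted p of this gene ran from 0.0375 to 0.438 over 15 alternatives. That fit called 1 of the 7 members lower, against 0.433% of all genes. Ugt2b37 had a log2 difference of -2.26 and a limma adjusted p of 0.0985 without F2212, within a range of 0.0985 to 0.646. With that mouse left out, 6 of the 7 members no longer overlapped between diets, all except Ugt2b34, against 5.79% of all genes lower without overlap in the same 7 mice. F2212 was picked for lying inside the Low AA range of the rare members, which partly fixes that count. The choice also partly fixes the larger differences and smaller adjusted p of Ugt2b37 and Ugt2b38 without this mouse. F2212 stood apart in other genes too. Cela1, a pancreatic elastase gene, was at 36587 in F2212 and at 130 to 288 in the other 7 mice, and the other 5 pancreas markers were not listed. Values for 15 acute-phase genes summed to 827749 in F2212 and to 465759 to 597328 in the others. The part of either in the low Ugt2b37 and Ugt2b38 values was not tested.

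**Figure D3:**
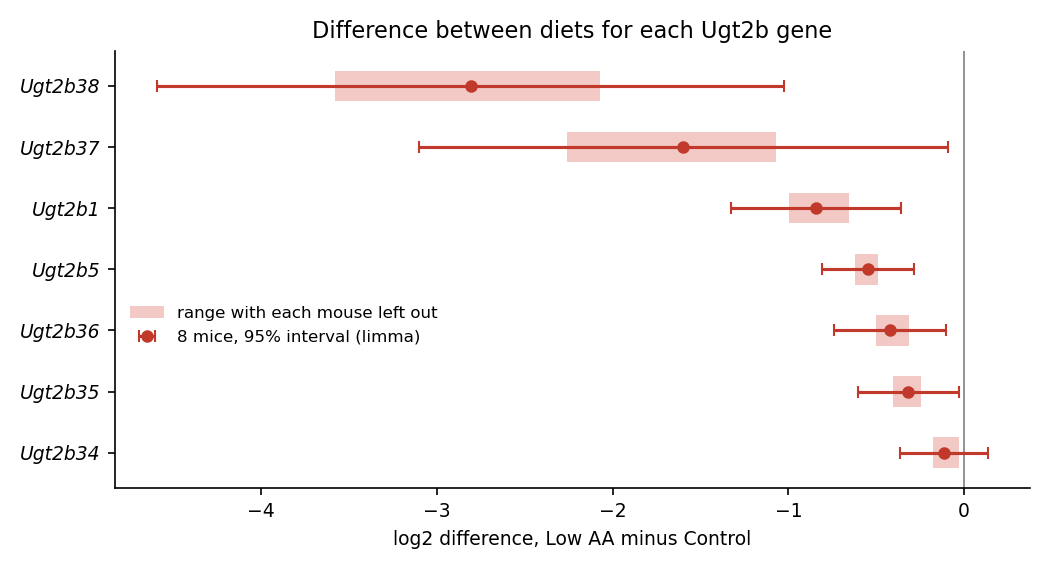
Log2 difference between diets (Low AA minus Control) for each Ugt2b gene, with points and 95% intervals from limma in 8 mice and shaded bars for the range when each mouse is left out in turn. All points lie below 0, from -0.11 for Ugt2b34 to -2.81 for Ugt2b38, and no shaded bar crosses 0.

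Since Ugt2b38 shares reads with the far more abundant Ugt2b5, the ratio of these genes was read in each mouse, and it was not constant. On Low AA, Ugt2b38 was 0.110% to 0.194% of Ugt2b5, and on Control it was 2.83% in F129, 0.126% in F2212, 1.28% in F7111 and 0.404% in F2110. The ratio in 3 Control mice was thus above that in every Low AA mouse. How the authors' counting split such reads is not given in the sources used here, and its part in the values was not tested. For the sum of Ugt2b5, Ugt2b37 and Ugt2b38, which does not depend on a split of reads among them, the range was 23691 to 30456 on Control and 16429 to 21727 on Low AA. This sum is nearly all Ugt2b5, since Ugt2b38 was at most 2.83% and Ugt2b37 at most 0.762% of Ugt2b5, both in F129. It therefore cannot show whether Ugt2b37 or Ugt2b38 differed between the diets.

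The family was also followed as a sum. The 7 genes added up to 69856, 65164, 74484 and 56923 in Control mice and to 44060, 51801, 48639 and 46240 in Low AA mice. Every Low AA mouse was below every Control mouse, and the mean was 28.4% lower, at 47685 ± 3321 against 66607 ± 7494 (SD, n = 4 each). No test is given for the sum, since its genes were chosen with results known. Of all scaled read counts in a library, the 7 genes took 0.229% ± 0.0220 on Control and 0.165% ± 0.0159 on Low AA. Ugt2b5 made up 40.8% ± 2.30 of the sum on Control and 38.9% ± 1.98 on Low AA. The share of Ugt2b34 was 15.8% ± 1.13 on Control and 20.3% ± 1.01 on Low AA, with ranges of 14.6% to 16.8% and 19.2% to 21.2% that did not overlap. Ugt2b37 and Ugt2b38 together stayed under 2% of the sum in every mouse, so the family total reflects the abundant members.

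Levels can be compared between genes only per length of transcript. As scaled read count per kilobase on Control, Ugt2b5 was highest at 14599 ± 1357, followed by Ugt2b36 at 6364 ± 1203, Ugt2b1 at 4130 ± 1425, Ugt2b34 at 3439 ± 445, Ugt2b35 at 1761 ± 212, Ugt2b38 at 174 ± 192 and Ugt2b37 at 54.9 ± 45.9 (SD, n = 4 each). Ugt2b36 and Ugt2b1, Ugt2b1 and Ugt2b34, and Ugt2b38 and Ugt2b37 overlapped as neighbours in that order, and the other neighbours did not. On Low AA, Ugt2b34, at 3166 ± 275 per kilobase, came before Ugt2b1, at 2218 ± 284, and these no longer overlapped. The other abundant members kept their places, with Ugt2b5 at 10011 ± 1197, Ugt2b36 at 4717 ± 508 and Ugt2b35 at 1417 ± 208. Ugt2b37, at 14.5 ± 8.45, and Ugt2b38, at 13.7 ± 5.79, overlapped at the bottom of the order.

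Along the chromosome, the differences of the Ugt2b genes in the main fit ran mostly in 1 direction, with Ugt2b1 as the exception. Ugt2b34 and Ugt2b1 are neighbours at 1 end of the cluster, with log2 differences of -0.11 and -0.84. After them came Ugt2b35 at -0.32, Ugt2b36 at -0.42, Ugt2b5 at -0.55, Ugt2b37 at -1.60 and Ugt2b38, at the other end, at -2.81. From Ugt2b35 to Ugt2b38 the difference in the main fit was thus larger at each Ugt2b gene. The steps from Ugt2b35 to Ugt2b5 were small beside standard errors of 0.13 for Ugt2b35, 0.14 for Ugt2b36 and 0.12 for Ugt2b5. Without Control mouse F2212, Ugt2b35 was at -0.40 and Ugt2b36 at -0.31. Without Low AA mouse H828 they were at -0.40 and -0.34, so the order broke in both fits. It held with any other mouse left out. The order along the chromosome was not tested. Ugt2a3, between Ugt2b37 and Ugt2b38, was at 3583 to 4655 on Control and 4294 to 5385 on Low AA, a log2 difference of 0.18 (standard error 0.12, limma adjusted p = 0.603).

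**Figure D4:**
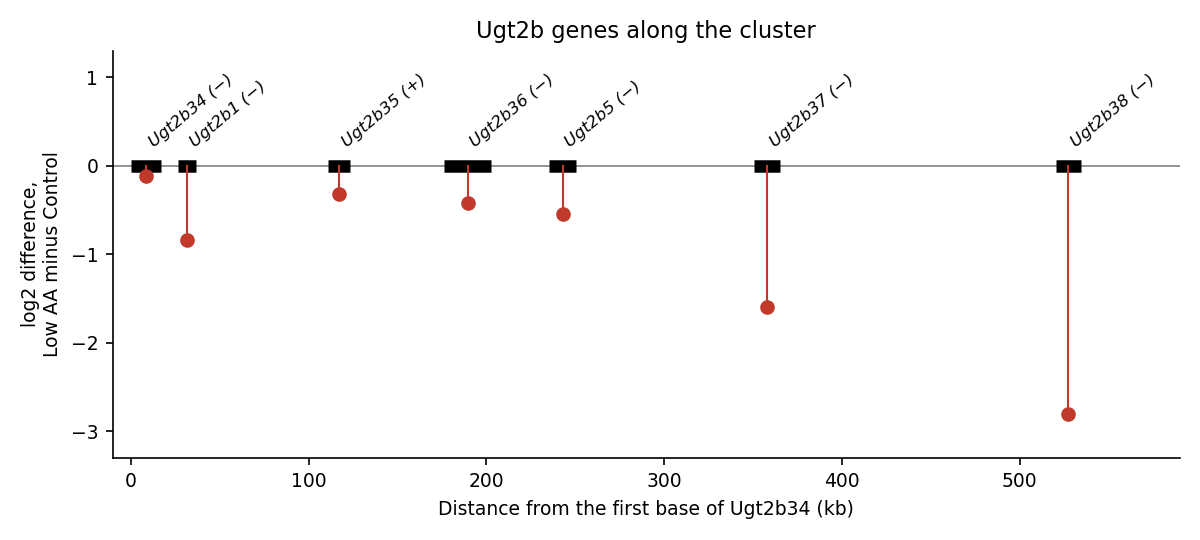
Log2 difference between diets (vertical axis, Low AA minus Control) of each Ugt2b gene against its distance in kb from the first base of Ugt2b34, with gene bodies as black blocks and the strand in brackets. The largest differences, -1.60 and -2.81, are at Ugt2b37 and Ugt2b38 at the right.

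The genes whose pattern over the 8 mice was most like that of Ugt2b38 were C6, Ccpg1, Cyp2f2, Echdc1 and Tspyl2, with Pearson r on the log2 scale of 0.956, 0.945, 0.938, 0.934 and 0.932. These values describe likeness over 8 mice of both diets and are given with no test. C6, a component of the terminal complement pathway, was at 8801, 4644, 7443 and 5165 in F129, F2212, F7111 and F2110 and at 2672 to 3159 on Low AA, a log2 difference of -1.08 (standard error 0.19, limma adjusted p = 0.0414). In Cyp2f2, a cytochrome P450 gene, values were 26941, 14724, 24920 and 16223 on Control and 10826 to 13212 on Low AA (log2 difference -0.77, limma adjusted p = 0.131). In these genes F129 and F7111 were the high Control mice and F2212 and F2110 the low ones, as in Ugt2b1 and Ugt2b38. That order largely follows from picking the genes for likeness to Ugt2b38 in the same mice.

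Other genes of glucuronidation were read from the same fit, in which 0.399% of all genes passed in either direction. Of 9 Ugt genes outside the 2B group, 1 rose and 0 fell. That gene was Ugt1a9, with 1554 to 2787 on Control and 6930 to 8869 on Low AA, a log2 difference of 1.76 (standard error 0.17, limma adjusted p = 0.00198). Ugt1a6a and Ugt1a6b did not pass, with log2 differences of -0.65 for both and adjusted p of 0.119 and 0.146. Since Ugt1a transcripts share their later exons, the split of reads among them is uncertain.

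Of 15 genes that supply UDP-glucuronate or handle and transport glucuronate and glucuronides, 0 passed in limma, and at an unadjusted p under 0.05 there were 4 lower and 1 higher, where 6.7% of all genes were lower and 5.13% higher. Ugdh, the dehydrogenase that makes UDP-glucuronate, was at 2573, 3586, 2869 and 2597 in Control mice and at 1073, 1882, 1714 and 1595 in Low AA mice. The diets did not overlap (log2 difference -0.91, standard error 0.18, limma adjusted p = 0.0712). Abcc3, an exporter of glucuronides to blood, was at 5769 to 7575 on Control and 2967 to 5718 on Low AA, also without overlap (log2 difference -0.70, limma adjusted p = 0.147). Cryl1, of the pathway that breaks down glucuronate, was at 239 to 348 and 170 to 203 (log2 difference -0.68, limma adjusted p = 0.0793). The median log2 difference was -0.15 over these 15 genes and -0.01 over the 9 other Ugt genes, against 0.00 over all genes.

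**Figure D5:**
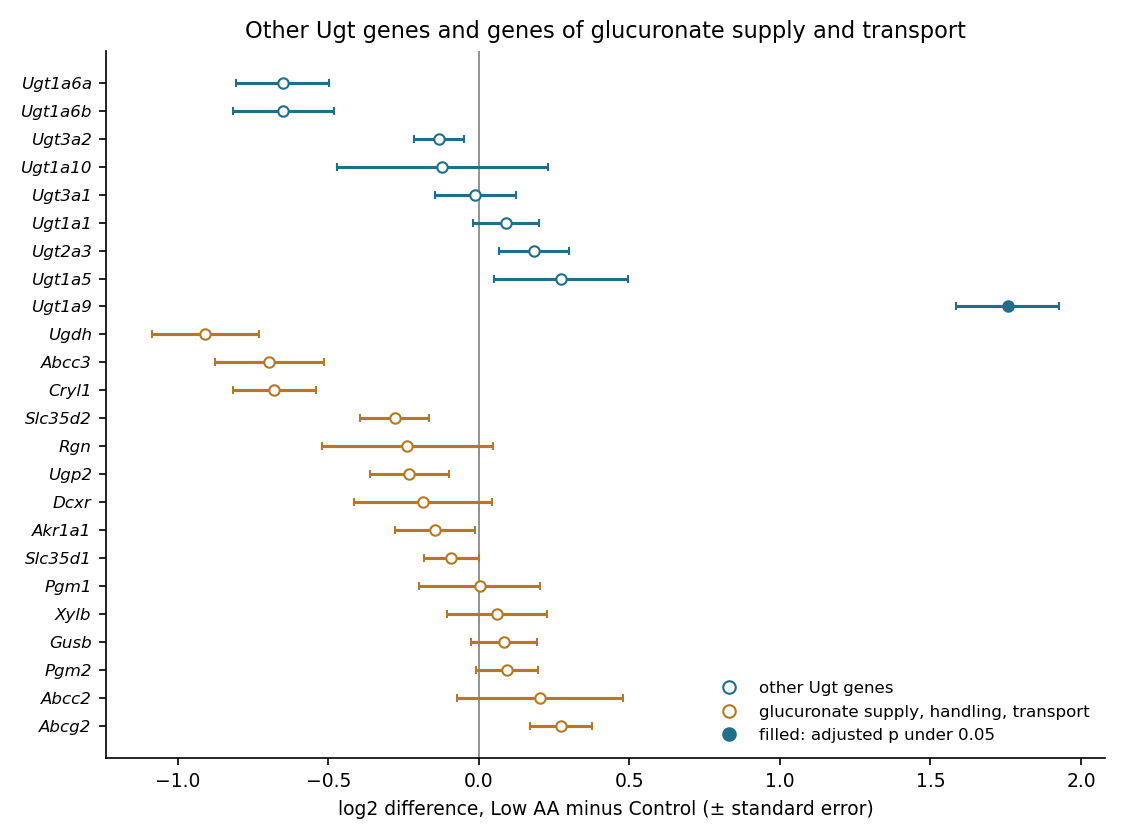
Log2 difference between diets (Low AA minus Control, ± standard error, 4 mice per diet) for 9 Ugt genes outside the 2B group and 15 genes of glucuronate supply, handling and transport. Ugt1a9 is the filled point, at 1.76, and Ugdh has the lowest value, -0.91.

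Among 18 genes listed for steroid hormone metabolism, 0 passed in limma, with 2 lower and 3 higher at an unadjusted p under 0.05 (6.7% and 5.13% of all genes). The largest log2 differences were 1.54 for Cyp17a1 (adjusted p = 0.0847), -0.93 for Cyp2d9 (adjusted p = 0.0793) and -0.91 for Cyp7b1 (adjusted p = 0.52), all steroid hydroxylases. Cyp7b1 was at 14003, 3127, 8580 and 3721 in F129, F2212, F7111 and F2110, the same high and low Control mice as Ugt2b38. Of 18 transcription factors known to act on Ugt genes, 0 passed in limma, and 1 was higher and 0 lower at an unadjusted p under 0.05, which is near the 5.13% and 6.7% of all genes. The log2 difference was 0.52 for Stat5a, a mediator of growth hormone signalling, and -0.35 for Cebpa, a factor of hepatocyte differentiation (limma adjusted p = 0.266 and 0.521).

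Of the markers of cell types other than hepatocytes, 0 passed the adjusted test in limma, and at an unadjusted p under 0.05 there were 2 of 3 blood markers, 2 of 3 bile duct markers and 1 of 5 stellate cell markers lower and 1 of 5 macrophage markers higher (6.7% of all genes lower, 5.13% higher). Summed values for 5 macrophage markers were 5065 to 7714 on Control and 5459 to 7381 on Low AA. For 5 stellate cell markers they were 6068 to 7923 and 5924 to 7467, mostly from Dcn at 5133 to 6748. For 5 endothelial markers they were 4307 to 6228 and 5321 to 5865. The 3 bile duct markers listed summed to 141 to 234 and 71 to 145, with H1126 the 1 Low AA mouse inside the Control range, and the 3 blood markers to 6414 to 22257 and 7713 to 12216. Log2 differences were below 0 in 5 of 5 stellate, 0 of 5 macrophage, 2 of 5 endothelial, 3 of 3 bile duct and 3 of 3 blood markers. The share of all genes below 0 was 49.5%. None of the 4 adipose markers was listed. Their part in the Ugt2b values was not tested.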

How the data were processed

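Liver poly(A) RNA of 8 mice was sequenced as stranded libraries with single reads of 100 bases. The submitters' processing notes name bcl2fastq 1.8.2, STAR 2.5.0a, RSEM 1.2.6, edgeR 3.10.5, R 3.2.1 and build mm10, without their roles. Neither annotation nor scaling method was given in the sources used here, and the labels give no batch. The authors deposited 1 table with a signal for each gene and mouse, which is a read count scaled per library and rounded. Scaling was inferred from medians of 433.0 to 449.0 in every mouse and from evenly spaced gaps or doublings among low whole numbers, which gave factors of 0.902 to 1.11. The fold change and FDR columns of the table are the authors' own comparison and were not used.

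The model was a limma fit (version 3.58.1, R 4.3.3) to log2(value + 1) in which the variance followed the mean, and p-values were adjusted by Benjamini-Hochberg across the 11784 genes. Genes needed 4 or more mice at 1 or above, which removed no gene. Fold changes on this scale understate those of low genes. The fit was tested on simulated data. Exact permutation tests used 70 arrangements of the 8 mice. Members and lists were chosen with earlier results of these data known. Named genes were the members, list genes that passed or had the 3 largest differences of their list, and the 5 genes most like Ugt2b38, apart from 1 listed gene that is not reported here; Ugt2a3 and the markers fall outside this rule. Listed symbols were matched through RefSeq synonyms. Transcripts and coordinates came from GENCODE M21 (GRCm38, the assembly of mm10), and for each gene the basic transcript of longest coding sequence was used. Sequences were aligned globally with Biopython 1.88. Alternatives were pseudocounts of 0.1 and 5, the 8000 genes of highest mean, equal column totals, quantile normalization, no trend, robust moderation, vooma weights and each mouse left out. Count models were not run, since the values are scaled.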

Additional observations from a re-analysis of the deposited data

Results flagged for a closer look

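In 16 groups of 4 mice examined (7 genes and their sum on 2 diets), 1 mouse stood far from the other 3. Ugt2b34 in Low AA mouse H828, at 10899 against 9055 to 9341, had a gap over range of 0.832 on the log2 scale, just past Dixon's critical value for 4 samples. Chance gives about 1 such group in 20.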

How the results depend on the processing

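The 16 alternatives gave 110 log2 differences for the 7 Ugt2b genes, and all stayed below 0. With the 8000 genes of highest mean, no trend, robust moderation and vooma weights, the log2 difference is by construction that of the main fit. Only its adjusted p could change there. In 109 of the 110 the gene stayed on the same side of the threshold, and the exception was Ugt2b38 without Control mouse F2212. With each mouse left out the number of Ugt2b genes called ran from 0 to 1, and it was 0 under every other alternative. For the listed genes of glucuronidation, steroid metabolism and regulation, 1 was called, and leaving out each mouse gave 1 to 3, namely 3 without F2212 (Ugt1a9, Cyp2d9 and Cryl1) and 2 without Control mouse F2110 (Ugt1a9 and Cyp17a1). Over all genes, 47 were called, 16 to 77 with a mouse left out, 30 without the mean-variance trend and 19 among the 8000 genes of highest mean, where fewer genes were tested. Ugt2b37 and Ugt2b38 are not among those 8000. No scaling moved the median of all genes by more than 0.1 on the log2 scale. The sum of the 7 genes on Low AA was 0.716 of that on Control, 0.706 per kilobase, and 0.683 to 0.745 with each mouse left out. No paired analysis was possible because no mouse code occurs on both diets. Low values limit Ugt2b37 and Ugt2b38 most.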
